A study of Homo sapiens with 71 samples.

Results

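ASNS, PSAT1, PHGDH, MTHFD2, ATF4, ATF5, ATF3, DDIT3, DDIT4 and CHAC1 belong to the stress response that runs through the transcription factor ATF4 and to the synthesis of serine and asparagine. They were taken by gene symbol from the deposited table, where they make up 10 of 31012 complete entries. The genes were picked with earlier results of these data known. The rule that defines them left out 3 libraries, naming ASNS and PSAT1 among probes lost in single libraries. Measured values thus bore on which libraries were used, although only CRMI 1 of the 3 showed a loss particular to such probes. Across 16 river waters, PSAT1 was the member that moved most often: it was lower than in purified water at 6 sites and higher at 2. ASNS was lower at 2 sites, DDIT3 and ATF4 were each lower at 1 site, and DDIT4 was higher at 1. No member was called at the mean of the 16 waters.

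ATF4 is a basic leucine zipper transcription factor. When amino acids run short, unfolded proteins collect in the endoplasmic reticulum or mitochondria fail, an eIF2 kinase slows general translation while the ATF4 message is translated more, so ATF4 activity is set largely at the protein level. ATF4 binds C/EBP-ATF response elements, raises the enzymes that make serine, glycine and asparagine and the tRNA synthetases that use them, and switches on further factors such as DDIT3, also called CHOP.

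The cells were HepG2, an established human hepatoma line. Cells pooled from the same flasks were spread over dishes, grown for 72 hours and then kept for 48 hours in culture medium made up with 75% filtered river water, or with purified water for the controls. The waters came from BRWI, CRMI, CROH, FRWI, GRMI, GRNY, IHIN, JRMI, LRMN, MAWI, MIWI, MROH, ORNY, RRMI, SRMI and VROH, the labels' codes for Great Lakes tributary sites, with 4 libraries a site except 3 for CRMI, MIWI, SRMI and VROH, against 8 control libraries. RNA was read with TempO-Seq, a targeted assay that ligates and sequences probe pairs meeting on a transcript. Every group, controls included, had the same medium with fetal bovine serum, penicillin, streptomycin, HEPES and normocin. The labels call the dishes biological replicates, but all come from 1 cell line and 1 pool of cells, and dishes of a site share its water, so the tests measure the spread between dishes and not between collections of water. In a bulk culture, less transcript in every cell and fewer cells that make it cannot be told apart.

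The 60 site libraries kept here held 2.91 to 9.89 M counts (M is 1000000) (median 5.55) and the 8 control libraries 8.18 to 14.52 M (median 9.11). All 14 hepatocyte and HepG2 markers were detected, ALB at a median of 56900 and AFP at 39000 counts per M (CPM). Among markers of other cells, PTPRC, KDR and KRT6A were at 0. The immune list summed to 729 to 3860 CPM in site libraries and 1470 to 2060 CPM in controls, with LYZ at a median of 1560 CPM. The list for squamous and other epithelial cells summed to 2190 to 4070 CPM in site libraries and 2380 to 3420 CPM in controls, with EPCAM at a median of 2760 CPM. Values are CPM on library totals adjusted by edgeR's TMM method, and they compare libraries for 1 gene, not genes with each other, since probes differ in how well they capture their target. A change is a log2 difference, site minus control, with its standard error. A call is an adjusted p under 0.05 by edgeR's quasi-likelihood test with Benjamini-Hochberg adjustment over all 6916 features tested.

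Single libraries of this series are short of a shared set of probes, and the serine and asparagine enzymes are among those touched. The libraries CRMI 1, SRMI 3 and VROH 2 were left out by the rule. In CRMI 1, 608 of 4547 well-measured features lay at least 3 log2 units under the other CRMI libraries, ASNS by 4.27 and PSAT1 by 3.54 units among them, while PHGDH differed by -2.79, MTHFD2 by -2.36 and ATF4 by -0.51. In 6 of the 68 libraries kept, these features, without the members and list genes, had a median at least 0.4 log2 units under the rest of the group. Those libraries were JRMI 2 (-1.47), GRNY 2 (-1.31), LRMN 4 (-0.99), FRWI 1 (-0.71), control 1 (-0.67) and GRNY 3 (-0.47), and the other 62 lay between -0.26 and 0.87. They are called the low libraries here. The text states which member calls held without them, while changes of single list genes are given with them alone. Of the libraries left out, SRMI 3 had a median of -0.16 for the lost features, against -0.06 for the other well-measured ones. VROH 2 was low in both, at -5.8 and -5.7. Of the 3, CRMI 1 alone showed a loss particular to this set.

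Of the 10 members, 9 passed the filter on low counts and were tested, which makes 144 comparisons of a member with the controls at a site. Of these, 10 were lower and 3 were higher, 6.94% and 2.08%, against a background over all features of 2.2% lower and 1.89% higher. PSAT1 accounted for 8 of the 13 calls. At the mean of the 16 sites edgeR called no member, with 1 at an unadjusted p under 0.05 (DDIT3, lower), and DESeq2 called none, with none at that unadjusted level; 0.174% of all features were called there. The largest differences at the mean of sites were 0.27 ± 0.27 for DDIT4 and -0.28 ± 0.25 for ASNS. Between the 16 sites, 5 of the 9 tested members differed (PSAT1, ATF4, ASNS, ATF5 and DDIT3), beside 49.8% of all features, so the share of members that differed between waters was near the background.

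**Figure D1:**
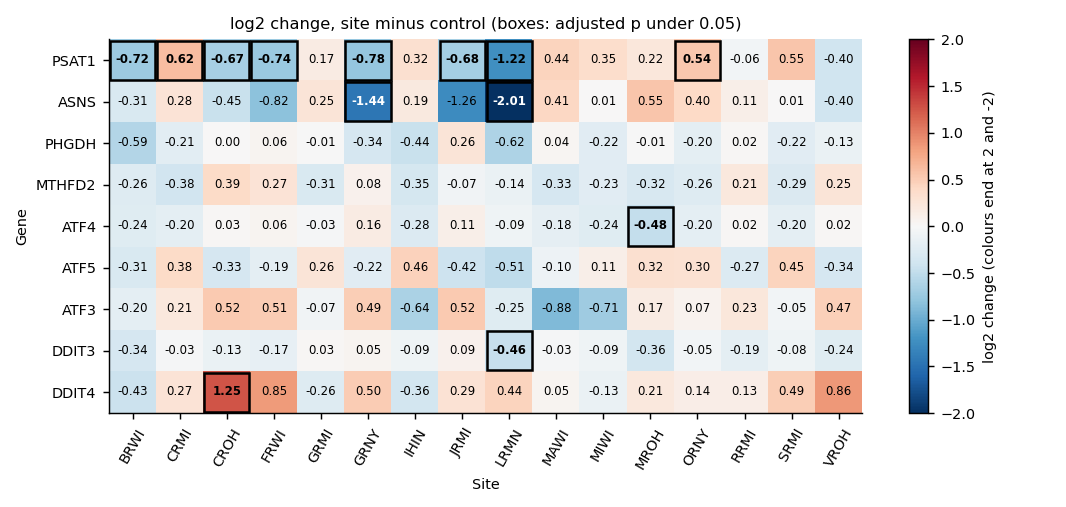
Each cell gives the log2 change, site minus control, of 1 of the 9 tested genes (down the page) at 1 of the 16 sites (across), with red for higher and blue for lower; boxes mark an adjusted p under 0.05. PSAT1 holds 8 of the 13 boxes, and LRMN is the only site with 3 boxes.

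PSAT1 encodes phosphoserine aminotransferase, the middle enzyme of serine synthesis from a glycolytic intermediate; the gene lies on chromosome 9 at 78297143 to 78330093 on the plus strand of GRCh38. Its strongest fall was at LRMN, where the 4 libraries had 34.2, 26.05, 30.6 and 22.5 CPM, against a lowest value of 48.2, a median of 66.9 and a highest value of 81.3 CPM in the 8 controls. All 4 LRMN libraries lay under every control. The means were 28.3 ± 5.12 CPM at LRMN (SD, n = 4) and 66.1 ± 9.61 CPM in controls (SD, n = 8), a log2 change of -1.22 ± 0.17 with an adjusted p of 6.58e-07 by edgeR, at a site where 17.5% of all features were called. It was -1.18 without the low libraries.

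At 5 further sites PSAT1 fell by 0.67 to 0.78 log2 units. At BRWI its libraries had 41.2, 27.3, 43.2 and 46.9 CPM, all under the lowest control value of 48.2 CPM, and the change was -0.72 ± 0.17 (adjusted p 0.0122), with 1.14% of features called. PSAT1 was 1 of 79 features called there. At CROH they had 49.1, 38.6, 33.2 and 45.3 CPM and a change of -0.67 ± 0.17 (adjusted p 0.00604; 10.3% of features called). At FRWI they had 37.3, 36.0, 50.7 and 34.8 CPM and a change of -0.74 ± 0.17 (adjusted p 0.0145; 2.18% called). At both sites 3 of 4 libraries lay under every control and 1 overlapped them.

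GRNY and JRMI hold 3 of the low libraries. At GRNY PSAT1 had 53.6, 25.2, 40.7 and 33.7 CPM, of which the second and the third come from low libraries, and its change was -0.78 ± 0.17 (adjusted p 0.00449; 9.17% of features called); without the low libraries it was -0.63 (adjusted p 0.0229). At JRMI it had 38.9, 23.8, 41.4 and 60.2 CPM, the second from a low library, with a change of -0.68 ± 0.17 (adjusted p 0.0138; 2.91% called). Without the low libraries the JRMI change was -0.54 with an adjusted p of 0.0649, so that call was lost. The other PSAT1 calls held without them. Of the 8 PSAT1 calls, the one at LRMN held whichever single library was left out, and each of the others was lost without at least 1 library of its own site.

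PSAT1 was higher at CRMI and ORNY. The 3 CRMI libraries kept had 96.1, 100.3 and 108 CPM, all over the highest control value of 81.3 CPM. The change was 0.62 ± 0.17 (adjusted p 0.0181), with 8.01% of features called. CRMI 1, left out by a rule that names PSAT1 among lost probes, had 8.18 CPM, scaled with all 71 libraries. The separation from the controls therefore holds for the kept libraries only. With all 71 libraries edgeR gave a change of 0.23 at CRMI (adjusted p 0.711). The 4 ORNY libraries had 110.2, 103.5, 99.5 and 69.9 CPM, 3 of them over every control, and the change was 0.54 ± 0.15 (adjusted p 0.033), with 4.09% called. At MAWI all 4 libraries, from 82.6 to 94.6 CPM, and at MIWI all 3, from 82.6 to 86.0 CPM, also lay over every control, but the changes of 0.44 ± 0.16 (adjusted p 0.086; 4.71% called) and 0.35 ± 0.17 (adjusted p 0.615; 0.0145% called) did not pass. SRMI had 0.55 ± 0.17 (adjusted p 0.0849; 1.27% called). MAWI passed when edgeR was fitted to that site and the controls alone (adjusted p 0.0368), and SRMI passed in DESeq2 (adjusted p 0.0467).

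Ordered by mean, PSAT1 ran CRMI (101 CPM), SRMI, ORNY, MAWI, MIWI, IHIN, MROH, GRMI, controls (66.1), RRMI, VROH, CROH, JRMI, FRWI, BRWI, GRNY and LRMN (28.3 CPM), a 3.58-fold span. No 2 neighbours in that order were separated: their libraries overlapped in all 16 pairs. The ends were far apart all the same, and PSAT1 had the largest F value between sites among the members, 18.8 with an adjusted p of 2.62e-14 by edgeR. Its spread between libraries of a group was also small, 0.27 log2 units, against 0.78 for ASNS.

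**Figure D2:**
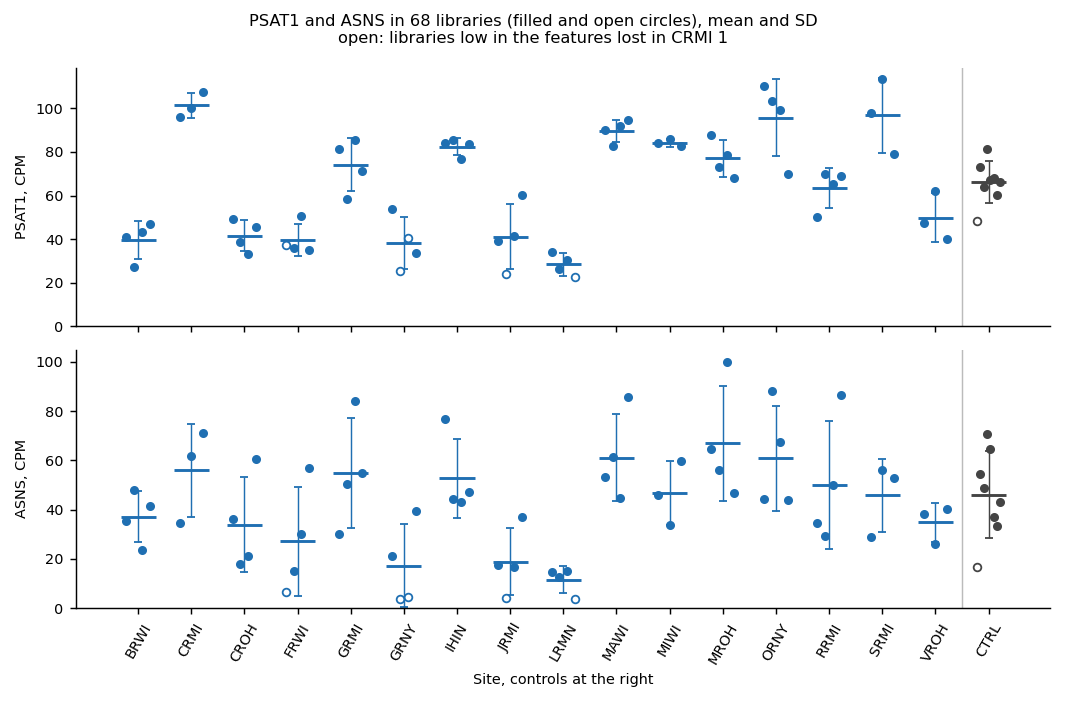
CPM of PSAT1 (top) and ASNS (bottom) in the 68 libraries, by site with the controls at the right; circles are libraries, open ones are the 6 low libraries, bars are means and whiskers SD. PSAT1 spreads less within groups, from 22.5 to 34.2 CPM at LRMN and 96.1 to 108 at CRMI, against 48.2 to 81.3 in controls, whereas ASNS spreads widely within most groups and its open circles lie at the bottom.

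ASNS encodes asparagine synthetase, which makes asparagine from aspartate and glutamine and is a classic target of ATF4; it lies on chromosome 7 at 97852118 to 97872542 on the minus strand. At LRMN it had 14.8, 12.7, 15.3 and 3.78 CPM, the last from a low library, against a lowest value of 16.8, a median of 46.0 and a highest value of 70.7 CPM in controls. All LRMN libraries lay under every control, although the lowest control was itself a low library. The means were 11.6 ± 5.36 CPM at LRMN (SD, n = 4) and 46.1 ± 17.5 CPM in controls (SD, n = 8), a change of -2.01 ± 0.49 (adjusted p 0.00307 by edgeR). Without the low libraries it was -1.82 (adjusted p 0.00135), and with the level of the lost features as a covariate -1.42 (adjusted p 0.000207).

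At GRNY the ASNS call rested on its low libraries. The 4 values were 21.1, 3.76, 4.46 and 39.5 CPM, the second and the third from low libraries, and the change was -1.44 ± 0.47 (adjusted p 0.0407). It was -0.75 without the low libraries (adjusted p 0.224) and -0.58 with the covariate (adjusted p 0.182). JRMI had 17.6, 4.05, 16.6 and 37.1 CPM, the second from a low library, and a change of -1.26 ± 0.46 that did not pass (adjusted p 0.123). At FRWI the values were 6.70, 14.9, 30.2 and 56.8 CPM, the first from a low library. Their spread was wider than that of the controls, and the change was -0.82 ± 0.45 (adjusted p 0.303).

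No site had higher ASNS past the threshold: edgeR made 0 such calls, with 0 at an unadjusted p under 0.05, and DESeq2 also made 0. MROH had the highest mean, 66.9 CPM, with libraries at 64.6, 56.3, 100.0 and 46.8 CPM that overlapped the controls. From MROH to LRMN the means spanned 5.75-fold, all 16 pairs of neighbours overlapped, and the F value between sites was 3.64 (adjusted p 0.000794). Within groups, ASNS moved with the lost features: over 68 libraries its deviation from the rest of its group had a Pearson r of 0.82 and a Spearman rho of 0.76 with theirs, and in all 6 low libraries its deviation was between -2.32 and -1.51 log2 units. For PSAT1 r was 0.55 and rho 0.31, and 5 of 6 low libraries lay under their group. For ATF4 r was 0.23 and rho 0.1. These values describe libraries that share groups, and the part of the lost features in the ASNS values beyond these adjustments was not tested.

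**Figure D3:**
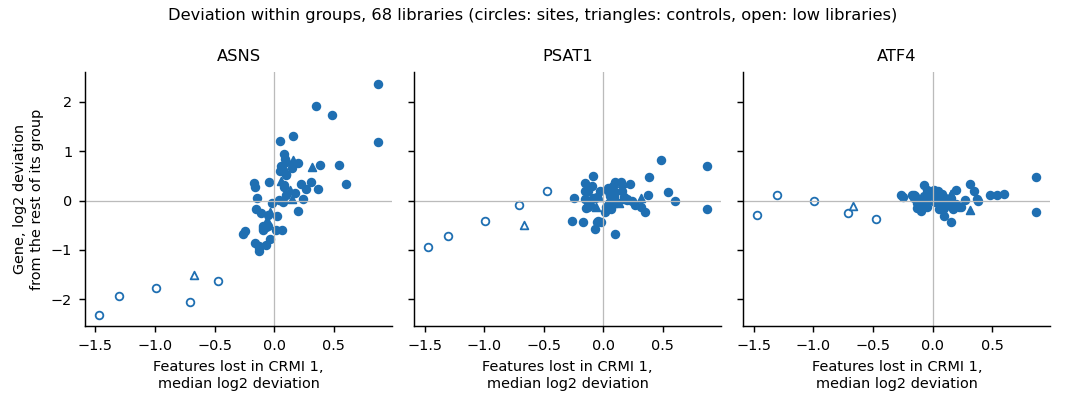
Deviation of each of the 68 libraries from the rest of its group in log2 units, for the features lost in CRMI 1 (across) and for ASNS, PSAT1 and ATF4 (up); circles are site libraries, triangles controls and open symbols the 6 low libraries. The open symbols lie between -2.32 and -1.51 for ASNS, between -0.94 and 0.18 for PSAT1 and between -0.38 and 0.12 for ATF4.

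The ATF4 binding motif gives a further view of the members. The letters TGATGNAA, a form of the C/EBP-ATF response element, were searched on both strands of the 250 bases before each listed start in RefSeq's GRCh38.p14 annotation. All 10 members matched, with 16 promoters, of which 3 held the letters, those of ASNS, ATF3 and CHAC1; 3.14% of all 35116 promoters in the table did. The members were chosen as genes of the ATF4 pathway, so nothing is read from that difference. The letters TGACGTCA of the cAMP response element were in none of the members' promoters, so the motifs do not overlap there, and in 1.65% of all. The windows around the matches are shown because they hold letters of the element that ATF4 binds, with PSAT1 beside them as the member with the most calls; capitals mark the motif, which CHAC1 carries on the opposite strand.
ASNS, chr7:97872443-97872502, minus strand: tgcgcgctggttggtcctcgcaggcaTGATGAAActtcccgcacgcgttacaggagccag
ATF3, chr1:212565190-212565249, plus strand: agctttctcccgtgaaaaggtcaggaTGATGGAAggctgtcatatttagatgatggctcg
CHAC1, chr15:40953236-40953295, plus strand: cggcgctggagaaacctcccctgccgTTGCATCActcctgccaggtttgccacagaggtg
PSAT1, chr9:78297065-78297124, plus strand: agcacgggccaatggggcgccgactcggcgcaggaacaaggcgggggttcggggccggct
The ASNS match began 68 bases, the ATF3 match 191 bases and the CHAC1 match 209 bases before a listed start. A match is a description of the letters, and the absence of one in PSAT1 says only that these letters are not in its window.

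PHGDH, the first enzyme of serine synthesis and the step before PSAT1, was the member with the lowest F value between sites. It was called at no site by edgeR or DESeq2, with 0 sites at an unadjusted p under 0.05 in either, and its F value between sites was 0.421 (adjusted p 0.974). At LRMN it had 1.65, 2.68, 6.35 and 1.68 CPM, against a lowest value of 2.25, a median of 4.52 and a highest value of 7.22 CPM in controls. The LRMN change was -0.62 ± 0.46 (adjusted p 0.354), and the groups overlapped. Over the 16 sites its standard errors, 0.41 to 0.53 log2 units, exceeded those of PSAT1, 0.15 to 0.18, so that its changes were measured less closely; the cause was not tested. The F value was 0.953 without the low libraries (adjusted p 0.586) and 1.15 without GRNY 4, and leaving out GRNY 4 also gave a call at GRNY (-1.47, adjusted p 0.046). The lowest PHGDH values, 0.376 CPM in GRNY 2, 0.714 in JRMI 2 and 0.866 in GRNY 3, were all in low libraries.

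MTHFD2 is a mitochondrial folate enzyme that uses one-carbon units from serine. It too was called at no site by edgeR or DESeq2, with 0 sites at an unadjusted p under 0.05 in either. The largest differences were 0.39 ± 0.24 at CROH (159, 179, 253 and 218 CPM) and -0.38 ± 0.28 at CRMI (116, 122 and 119 CPM), against a lowest value of 121, a median of 156 and a highest value of 179 CPM in controls. Of the 4 CROH libraries 3 lay over and none under the control range, and of the 3 CRMI libraries 2 lay under it. Both sites passed when edgeR was fitted to the site and the controls alone, with adjusted p values of 0.0482 at CROH and 0.049 at CRMI. The F value between sites was 1.62 (adjusted p 0.156), but without the low libraries it was 3.99 with an adjusted p of 0.000404, and with the covariate 3.82 with 0.000443. In GRNY, MTHFD2 ranged from 73.4 CPM in a low library to 339 CPM in GRNY 4, which was also the highest of its site for PHGDH (10.5 CPM), ASNS (39.5), ATF4 (606), DDIT3 (144), ATF5 (11.7) and DDIT4 (3.45).

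ATF4 itself lies on chromosome 22 at 39519695 to 39522685 on the plus strand. Its transcript was lower at MROH, where the 4 libraries had 313, 290, 279 and 341 CPM, against a lowest value of 379.9, a median of 426 and a highest value of 463 CPM in controls. The groups did not overlap. The means were 306 ± 27.7 CPM at MROH (SD, n = 4) and 427 ± 29.8 CPM in controls (SD, n = 8), a change of -0.48 ± 0.09 (adjusted p 0.00715 by edgeR). Only 0.0868% of all features, 6 of 6916, were called at MROH, and MROH holds no low library. The call was lost without MROH 1, 2 or 3 (highest adjusted p 0.205). The protein was not measured, and the level of the message need not follow it.

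ATF4 was highest at GRNY, 418, 501, 387 and 606 CPM, and JRMI, 492.2, 395.4, 465.5 and 485.6 CPM, and neither passed: the changes were 0.16 ± 0.09 (adjusted p 0.232) and 0.11 ± 0.09 (adjusted p 0.574). At IHIN all 4 libraries, 342, 347, 346 and 375 CPM, lay under every control, with a change of -0.28 ± 0.09 (adjusted p 0.115, and 0.0398 with that site and the controls alone; 0.549% of features called), and at MIWI all 3 did, 340.1, 374 and 367 CPM, with -0.24 ± 0.1 (adjusted p 0.583). From GRNY (478 CPM) to MROH (306 CPM) the means spanned 1.56-fold. Of the 16 pairs of neighbours in that order 1 was separated, IHIN and MROH. The F value between sites was 5.09 (adjusted p 2.16e-05).

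DDIT3 encodes CHOP, a partner of C/EBP factors that acts in prolonged stress, and lies on chromosome 12 at 57516588 to 57521737 on the minus strand. It fell at LRMN to 61.2, 84.6, 88.6 and 81.3 CPM, against a lowest value of 95.6, a median of 107 and a highest value of 126 CPM in controls. All 4 libraries lay under every control. The means were 78.9 ± 12.2 CPM at LRMN (SD, n = 4) and 108 ± 11.4 CPM in controls (SD, n = 8), a change of -0.46 ± 0.11 (adjusted p 0.00175 by edgeR). Without the low libraries the change was -0.47 (adjusted p 0.00357).

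No site had higher DDIT3 by either tool, with 0 sites higher at an unadjusted p under 0.05 in both. MROH, with 87.4, 79.6, 70.7 and 101 CPM (-0.36 ± 0.11, adjusted p 0.208), and BRWI, with 97.2, 80.8, 87.0 and 77.9 CPM (-0.34 ± 0.11, adjusted p 0.11), each had 3 libraries under the control range and did not pass. Its means spanned 1.46-fold, from 115 CPM at JRMI to 78.9 CPM at LRMN, with all 16 pairs of neighbours overlapping and an F value of 3.15 (adjusted p 0.00289).

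ATF5, a relative of ATF4 that is likewise controlled in translation and acts in the mitochondrial stress response, was called at no site. By edgeR 2 sites were higher and 1 was lower at an unadjusted p under 0.05, and DESeq2 called none. At IHIN it had 13.5, 10.2, 12.3 and 7.59 CPM, against a lowest value of 6.325, a median of 8.202 and a highest value of 9.15 CPM in controls, and 3 libraries lay over the controls (0.46 ± 0.21, adjusted p 0.225). At LRMN it had 4.61, 6.96, 6.58 and 4.06 CPM, of which 2 lay under the controls (-0.51 ± 0.22, adjusted p 0.104). LRMN passed when edgeR was fitted to that site and the controls alone (-0.53, adjusted p 0.0462) and with thinned counts (-0.8, adjusted p 0.0366), and SRMI passed with all 71 libraries (0.96, adjusted p 0.0254). ATF5 differed between sites with an F value of 3.44 (adjusted p 0.00135). Its means ranged from 10.9 CPM at IHIN to 5.55 CPM at LRMN, a 1.96-fold span with every pair of neighbours overlapping.

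**Figure D4:**
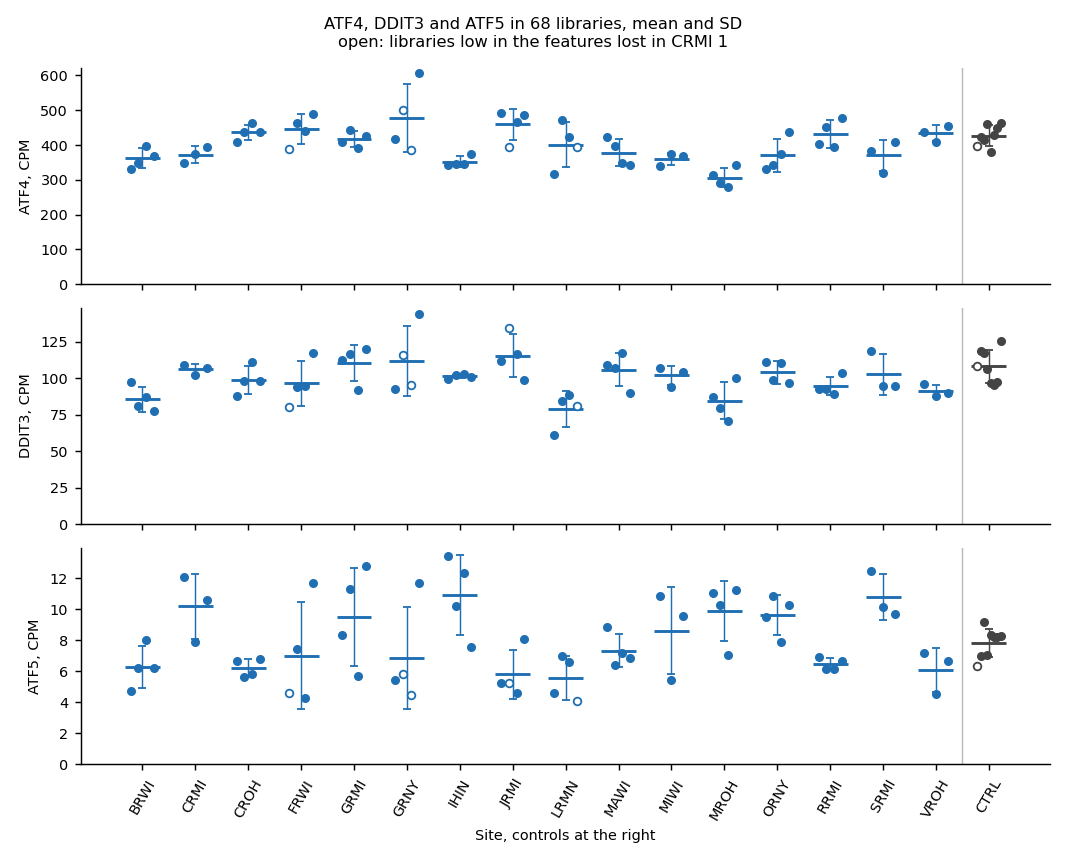
CPM of ATF4, DDIT3 and ATF5 in the 68 libraries, by site with the controls at the right; circles are libraries, open ones are the 6 low libraries, bars are means and whiskers SD. MROH is lowest for ATF4, at 279 to 341 CPM against 379.9 to 463 in controls, and LRMN is lowest for DDIT3, at 61.2 to 88.6 CPM against 95.6 to 126 in controls.

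ATF3, a stress-induced factor of the same family, averaged 1.53 CPM in controls and was called at no site by edgeR or DESeq2; each tool had 1 site lower at an unadjusted p under 0.05, which for edgeR was MAWI. MAWI had 0.535, 1.07, 0.399 and 1.09 CPM, against a lowest value of 0.788, a median of 1.45 and a highest value of 2.34 CPM in controls, a change of -0.88 ± 0.42 (adjusted p 0.215). Of those libraries 2 lay under the controls and 2 overlapped them. The F value between sites was 1.83 (adjusted p 0.0949). In the 6 low libraries ATF3 was 0.10 to 0.78 log2 units over its group.

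DDIT4, also called REDD1, restrains the growth kinase complex mTORC1. It was higher at CROH, where the libraries had 1.26, 2.105, 4.90 and 2.06 CPM, against a lowest value of 0.562, a median of 1.01 and a highest value of 1.75 CPM in controls. Of the 4 libraries 3 lay over every control and 1 overlapped. The means were 2.58 ± 1.59 CPM at CROH (SD, n = 4) and 1.09 ± 0.436 CPM in controls (SD, n = 8), a change of 1.25 ± 0.41 (adjusted p 0.041 by edgeR). The call is near the threshold: the change was 0.71 with an adjusted p of 0.461 without CROH 3, and the low count left it without an adjusted p in DESeq2. FRWI (0.85 ± 0.44, adjusted p 0.265) and VROH (0.86 ± 0.47, adjusted p 0.522; 0.13% of features called) had higher means, 2.051 and 2.045 CPM, that did not pass.

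CHAC1 breaks down glutathione and is raised by ATF4 and ATF3. It was too low for the filter, with 10 counts in 80.6 M over the 8 controls, or 0.124 per M (exact Poisson 95% interval 0.0595 to 0.228). At MAWI it had 18 counts in 22.5 M, 0.802 per M (0.475 to 1.27), a ratio of 6.46 to the controls (2.83 to 15.7). The MAWI libraries had 1.07, 1.25, 0.799 and 0.328 CPM, 3 of them over the highest control value of 0.338 CPM. At GRMI it had 13 counts, 0.775 per M (0.412 to 1.32) and a ratio of 6.24 (2.53 to 15.9), with 0.213, 0.297, 0.609 and 2.27 CPM, so that a single library held most of it. These intervals pool the counts of a group, so they cover counting error alone and not the spread between dishes. Since the reads carry no identifier of single molecules, even the counting error may be larger.

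An exact two-sided permutation test over libraries, added after the values were seen, gave p = 0.00808 for CHAC1 at MAWI, 0.0202 at GRMI and 0.0364 at CRMI. Adjusted over the 16 sites by Benjamini-Hochberg these were 0.129, 0.162 and 0.194, so none passed. With so few libraries, the smallest p this test can give would not pass for a single site after that adjustment. Nothing is therefore read from the failure to pass. In edgeR's fit with no filter on low counts the changes were 2.51 ± 0.73 at MAWI (adjusted p 0.054) and 2.49 ± 0.78 at GRMI (adjusted p 0.153), again short of the threshold, while the F value between sites was 2.61 and passed (adjusted p 0.0201). VROH had 0 counts in 20.4 M, which allows up to 0.181 per M (exact Poisson 95% limit) and overlaps the control interval.

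**Figure D5:**
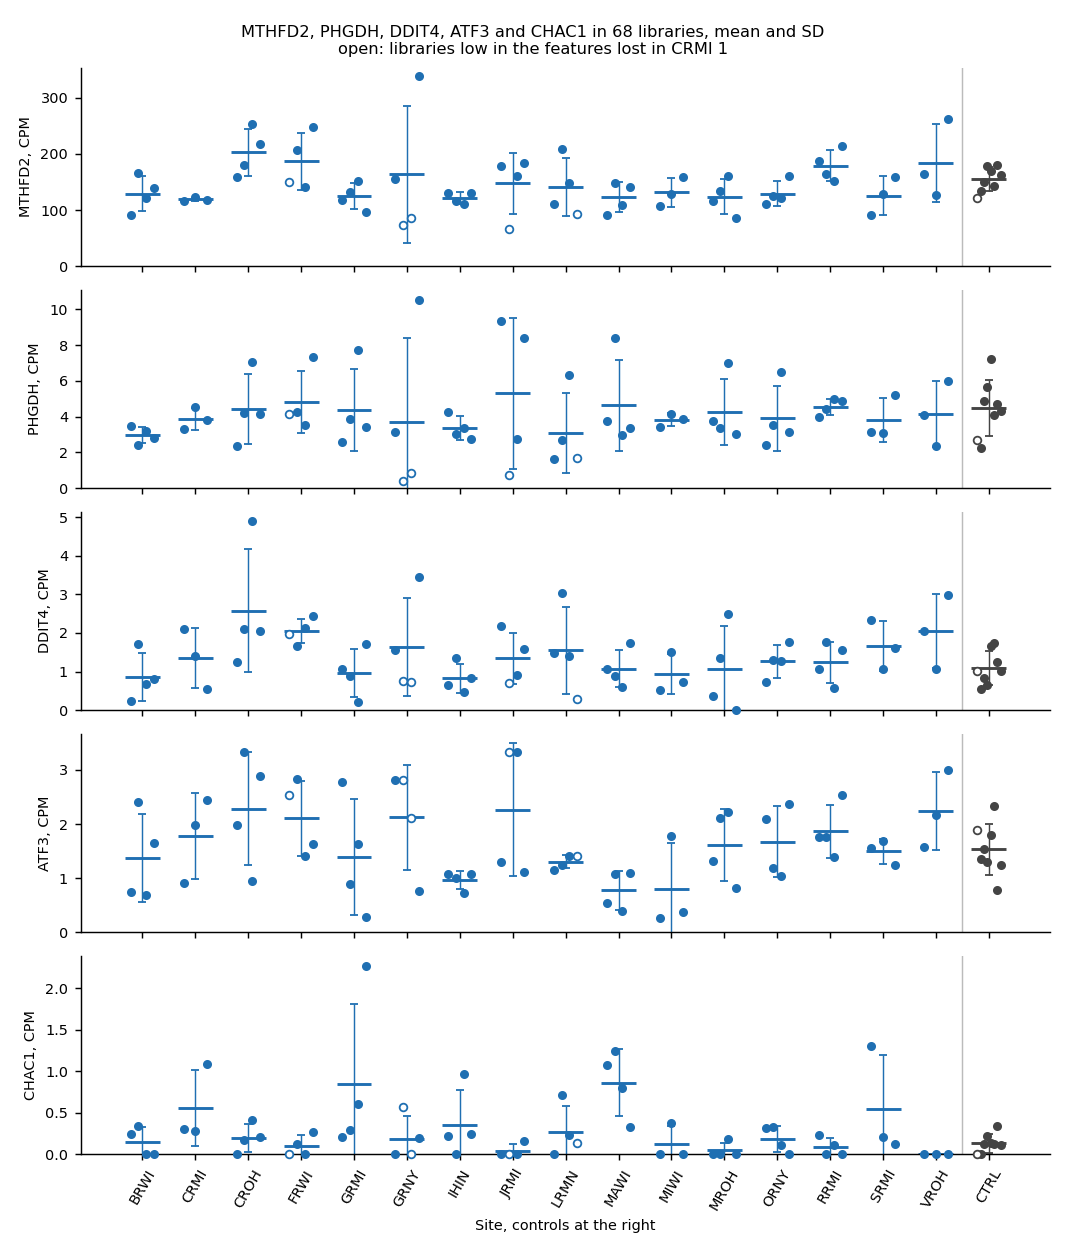
CPM of MTHFD2, PHGDH, DDIT4, ATF3 and CHAC1 in the 68 libraries, by site with the controls at the right; circles are libraries, open ones are the 6 low libraries, bars are means and whiskers SD. CROH stands highest for DDIT4 with a mean of 2.58 CPM against 1.09 in controls, and MAWI for CHAC1 with 3 of 4 libraries over the highest control value of 0.338 CPM.

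The members did not share a pattern over sites. Over the 16 site means of log2 CPM, which share the assay and the range of depth, PSAT1 was close to ASNS (Spearman rho 0.79, Pearson r 0.87) and ATF5 (0.84 and 0.88). ATF4 ran the other way to ASNS (rho -0.64, r -0.66) and to PSAT1 (-0.56 and -0.6), and with MTHFD2 (0.71 and 0.63), ATF3 (0.71 and 0.57) and DDIT4 (0.71 and 0.64). PHGDH had a weaker likeness to PSAT1 (0.21 and 0.42). Among all tested features those most like PSAT1 were FTSJ3 and GPD1 (rho 0.96 each) and CMTM7 (0.95), and those most like ASNS were DKK1 (0.98), ABRACL (0.96) and PPP4R3B (0.96). DKK1 and PPP4R3B are among the features lost in CRMI 1, and the 3 nearest to PSAT1 are not. ASNS and PSAT1 are themselves both among the lost features, and the site means include the low libraries. GRNY, JRMI, LRMN and FRWI, the sites with the lowest mean level of the lost features, also had the lowest ASNS means. The part of that loss in the likeness of ASNS and PSAT1 was not tested.

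For the other members the nearest features were as follows. ERLIN1 (rho 0.89), DLG5 (0.87) and POLD2 (0.87) were nearest to ATF4. C5orf47 (0.92), CRNKL1 (0.91) and NEK4 (0.91) were nearest to ATF5, and CARD19 (0.88), LSR (0.87) and HIST1H1B (0.87) to ATF3. DNAJC1 (0.82), KCNRG (0.8) and FBXW7 (0.77) were nearest to DDIT3, and CENPW (0.88), CRIP1 (0.86) and ISG20L2 (0.86) to DDIT4. MTHFD2 lay nearest to GMEB1 (0.94), CD7 (0.92) and IRF2BP2 (0.91), and PHGDH to PRKCA (0.8), ASXL2 (0.75) and NHEJ1 (0.74). Each value was picked as the highest of 6916 features over 16 points, and says nothing of shared control.

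Around the members, 8 lists with 122 tested genes were read in the same comparisons. Symbols that follow RAI14 in the alphabet were not analysed here. Over the 16 sites the lists had 75 lower and 54 higher calls in 1952 comparisons, 3.84% and 2.77%, against the background of 2.2% and 1.89%. At the mean of sites no list gene was called by edgeR or DESeq2, with 5 lower and 2 higher at an unadjusted p under 0.05 in each.

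Enzymes of serine, glycine and one-carbon metabolism had 10 lower calls and no higher one by edgeR in 304 comparisons of 19 tested genes. At an unadjusted p under 0.05 there were 39 lower and 13 higher. DESeq2 had 12 lower calls and 1 higher call. Of edgeR's lower calls 6 were at LRMN, where 567 of all 6916 features were called lower. The median over the list there was -0.17 log2 units against -0.01 over all features. ALDH1L2, which oxidises formyl folate in mitochondria, fell to 9.84 ± 1.57 CPM at LRMN (SD, n = 4), against 19.0 ± 3.73 CPM in controls (SD, n = 8; -0.95 ± 0.15, adjusted p 7.68e-06), and also fell at BRWI and GRNY. MAT2A, which makes S-adenosylmethionine, fell at LRMN (-0.59 ± 0.16, adjusted p 0.00645). AHCY, the hydrolase for S-adenosylhomocysteine, fell at CRMI (-0.55 ± 0.14, adjusted p 0.0115). MTR, methionine synthase, differed between sites (F 5.42, adjusted p 1.01e-05) and was called at none.

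Enzymes of asparagine, glutamate and proline had 12 higher and 12 lower calls in 192 comparisons of 12 tested genes, and 2 genes made most of them. GLUL, glutamine synthetase, had 6 calls each way: it was higher at CROH, FRWI, GRNY, JRMI, LRMN and RRMI (2.86% of features called at RRMI) and lower at CRMI, GRMI, IHIN, MAWI, ORNY and SRMI. Its level was 244 ± 17.3 CPM at LRMN (SD, n = 4) and 99.2 ± 12.3 CPM at MAWI (SD, n = 4), against 151 ± 16.3 CPM in controls (SD, n = 8). BCAT1, a transaminase of branched-chain amino acids, was lower at BRWI, CROH, FRWI, GRNY, JRMI and LRMN (-0.75 ± 0.12, adjusted p 1.13e-05, at LRMN) and higher at ORNY (0.37 ± 0.11, adjusted p 0.0446). ALDH18A1, the first enzyme of proline synthesis, rose to 40.5 ± 20.3 CPM at LRMN (SD, n = 4), against 17.6 ± 4.87 CPM in controls (SD, n = 8; 1.2 ± 0.24, adjusted p 0.00034), and also rose at CROH and GRNY. GOT2, mitochondrial aspartate transaminase, rose at GRNY and LRMN (0.46 ± 0.11, adjusted p 0.00322, at LRMN).

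Upstream of ATF4, the list of eIF2 kinases, their controls and phosphatase subunits had 4 higher and 6 lower calls. These were out of 256 comparisons of 16 tested genes, near the background of 1.89% higher and 2.2% lower over all features. EIF2AK4, the amino acid sensor GCN2, rose at LRMN (0.38 ± 0.06, adjusted p 2.8e-05), as did its activator GCN1 (0.55 ± 0.15, adjusted p 0.00697), which also rose at GRNY. EIF2AK1, the heme-controlled kinase, rose at LRMN (0.44 ± 0.1, adjusted p 0.000968) and fell at CRMI, MAWI, ORNY and SRMI, by 0.47 ± 0.1 at ORNY (adjusted p 0.00292). IMPACT, an inhibitor of GCN2, was lower at CROH (-1.87 ± 0.48, adjusted p 0.00862), at 0.512 ± 0.431 CPM (SD, n = 4) against 1.82 ± 0.662 CPM in controls (SD, n = 8). EIF2B3, a subunit of the eIF2 exchange factor, was also lower at CROH.

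Cytosolic aminoacyl-tRNA synthetases had 3 higher and 12 lower calls in 208 comparisons of 13 tested genes. GARS fell at CROH (-0.84 ± 0.2, adjusted p 0.0039) and at LRMN, CARS at LRMN (-0.52 ± 0.11, adjusted p 0.000519) and at BRWI, and NARS, which charges asparagine, at LRMN (-0.51 ± 0.13, adjusted p 0.00491). FARSA fell at CROH and GRNY and rose at CRMI (0.43 ± 0.13, adjusted p 0.0332) and MAWI. QARS fell at CRMI (-0.51 ± 0.15, adjusted p 0.0254).

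The bZIP partners and relatives of ATF4 had 13 higher and 10 lower calls in 336 comparisons of 21 tested genes. CEBPG, with which ATF4 pairs on its elements, fell to 5.70 ± 3.45 CPM at LRMN (SD, n = 4), against 13.3 ± 2.82 CPM in controls (SD, n = 8; -1.17 ± 0.27, adjusted p 0.00176). CEBPA fell at LRMN (-0.61 ± 0.15, adjusted p 0.00318) and rose at ORNY (0.48 ± 0.14, adjusted p 0.0344). JUND rose at 5 sites, by 0.7 ± 0.13 at GRNY (adjusted p 0.00165), and fell at 3, by 0.58 ± 0.14 at MAWI (adjusted p 0.00904). JUNB rose at CROH (0.62 ± 0.18, adjusted p 0.0182) and fell at CRMI, MAWI and ORNY, and FOSL1 rose at MAWI (0.8 ± 0.19, adjusted p 0.00616).

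Other targets of ATF4 and CHOP had 10 higher and 16 lower calls in 288 comparisons of 18 tested genes. CLGN, a chaperone of the endoplasmic reticulum, fell at LRMN (-0.63 ± 0.13, adjusted p 0.000343), CROH and GRNY and rose at CRMI (0.51 ± 0.13, adjusted p 0.0129). NUPR1, a small stress-induced nuclear protein, fell at LRMN (-0.87 ± 0.26, adjusted p 0.0169), and INHBE, a secreted inhibin subunit, at BRWI (-0.66 ± 0.14, adjusted p 0.00536). KLHL24 rose at CROH, GRNY, JRMI and LRMN (0.62 ± 0.14, adjusted p 0.000904, at LRMN) and fell at CRMI, MAWI and ORNY. GADD45A, which acts in growth arrest, fell at ORNY (-0.48 ± 0.11, adjusted p 0.0071), MAWI and SRMI. At LRMN this list had 3 higher and 3 lower calls, where 646 of all 6916 features were called higher and 567 lower.

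The mTORC1 list, the complex that DDIT4 restrains and its amino acid sensors, had 8 higher and 7 lower calls. These were out of 256 comparisons of 16 tested genes. FNIP2, a partner of folliculin, rose at LRMN (0.87 ± 0.17, adjusted p 0.000193), CROH and GRNY and fell at MAWI (-0.72 ± 0.19, adjusted p 0.015). DEPTOR, an inhibitor bound to mTOR, rose at LRMN (0.59 ± 0.21, adjusted p 0.0414) and fell at SRMI (-0.97 ± 0.26, adjusted p 0.0381) and ORNY. MIOS, of the amino acid sensing GATOR complex, fell at LRMN (-0.39 ± 0.09, adjusted p 0.00128) and CROH and rose at MAWI (0.31 ± 0.08, adjusted p 0.0229). LAMTOR2 rose at CRMI (0.4 ± 0.13, adjusted p 0.0376) and LRMN, and FNIP1 at BRWI (0.38 ± 0.09, adjusted p 0.0195).

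Glutathione genes, the substrate side of CHAC1, had 4 higher and 2 lower calls in 112 comparisons of 7 tested genes. GSR, glutathione reductase, rose at GRNY (0.33 ± 0.08, adjusted p 0.00625) and JRMI and fell at MAWI. OPLAH, which recycles the oxoproline that CHAC1 releases, rose at ORNY (0.48 ± 0.14, adjusted p 0.0311) and MAWI. GSS, glutathione synthetase, fell at CROH (-0.42 ± 0.14, adjusted p 0.041).

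Read by site, LRMN had the most member calls, 3 of 9, with 8 of 9 tested members under the control mean and a median of -0.46 log2 units against -0.01 over all features, where 17.5% of features were called. At BRWI all 9 tested members had a negative change, with a median of -0.31, and 1 was called, where 1.14% of features were called. PSAT1 alone had all its BRWI libraries under every control. The share of all features separated in that way is not given here, so nothing is read from it. GRNY had 2 calls, of which 1 rested on low libraries. CROH had 1 call each way, FRWI and JRMI 1 lower, CRMI and ORNY 1 higher, and MROH 1 lower. The shares of all features called were 9.17% at GRNY, 10.3% at CROH, 2.18% at FRWI and 2.91% at JRMI. These shares were 8.01% at CRMI, 4.09% at ORNY and 0.0868% at MROH. At GRMI, IHIN, MAWI, MIWI, RRMI, SRMI and VROH edgeR called no member. At an unadjusted p under 0.05 there were 3 at IHIN, 3 at SRMI, 2 each at MAWI, MIWI and VROH, and none at GRMI and RRMI; of these 7 sites DESeq2 made 1 call, PSAT1 at SRMI. Over all 6916 features, edgeR had 1216 at that unadjusted level at IHIN, 969 at SRMI, 1417 at MAWI and 556 at MIWI. VROH had 748, GRMI 1047 and RRMI 938.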

How the data were processed

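Per the submitters' processing notes, Salmon and the GRCh38 build were used. Its version, the probe positions and any scaling were not given in the sources used here. What the authors deposited are expected counts, that is, estimated counts per gene, although the table is named as normalized. In each library 1 read was worth 0.993 to 1.003, and a median of 93.4% of values under 20 (lowest 91.6%) lay within 0.02 of a whole multiple, so they were used as estimated counts. The table is held in part, to an incomplete entry, RAI14, that was left out. No column was unused (0 of 71), and 3 of the 71 were left out by the rule that defines the members. MIWI columns and GRMI 1 were tied to their site alone, so their numbers are the table's.

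After rounding, the quasi-likelihood test of edgeR 4.0.16 was run in R 4.3.3 with TMM scaling, filterByExpr with a minimum count of 10, a mean for each of 17 groups, 68 libraries and 51 residual degrees of freedom. Of 12425 features with a count, 6916 were tested, with a common biological coefficient of variation of 0.199. P values were adjusted by Benjamini-Hochberg within each comparison, over all its tested features. Standard errors come from the change and the test's F value. The features lost in CRMI 1 have a mean count of at least 50 and lie 3 log2 units or more under the other CRMI libraries; 596 of the 608 remain without members and list genes. Deviations and site patterns used log2(CPM + 0.5).

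The members, lists and tests were chosen with earlier results of these data known. Named genes are the 10 members. From each list come up to 3 genes with the smallest adjusted p between sites and up to 2 more with the largest change at a site, all among those past 0.05. The 3 features most like each tested member complete them. 1 gene that the rule names is not reported here. Alternatives were all 71 libraries, DESeq2 1.42.0, RLE size factors, no filter, the replicate number as a block, each site with the controls alone, counts thinned to 2.91 M, and leaving out each library. Leaving out the low libraries, the covariate and the CHAC1 permutation test were chosen after seeing the data. The procedure was tested on simulated data. Gene positions are from the GENCODE basic annotation of GRCh38, and promoter sequences are RefSeq's for GRCh38.p14. The growth protocol describes more control dishes than the 8 control libraries analysed here.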

Additional observations from a re-analysis of the deposited data

Results flagged for a closer look

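Of 117 groups of at least 4 libraries tested over the 9 members, 4 held a library far from the others; chance gives about 1 in 20. ASNS was 76.7 CPM in IHIN 1, against 43.3 to 47.0 CPM in the other 3 IHIN libraries. ASNS was 3.78 CPM in LRMN 4, against 12.7 to 15.3 CPM in the other 3, and LRMN 4 is a low library. MTHFD2 was 66.9 CPM in JRMI 2, also a low library, against 161 to 183 CPM in the other 3. ATF4 was 375 CPM in IHIN 4, against 342 to 347 CPM in the other 3.

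The site waters differed from one another, by edgeR's F test between sites, in PSAT1 (F 18.8), ATF4 (5.09), ASNS (3.64), ATF5 (3.44) and DDIT3 (3.15), beside 49.8% of all features.

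Among the libraries left out, SRMI 3 held members over the highest control: ATF5 at 30.6 CPM against 9.15 in that control, DDIT4 at 11.1 against 1.75, MTHFD2 at 281 against 179, PHGDH at 9.05 against 7.22 and ATF4 at 478 against 463. VROH 2, with 8840 counts in all, had DDIT4 at 78.2 CPM against 1.75 in the highest control.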

How the results depend on the processing

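Under the alternatives the 13 calls were least stable when the 3 left-out libraries were kept. Calls over all features then fell as well, at LRMN from 1213 to 348 and at GRNY from 634 to 10. At VROH they stayed at 9, and no site had more. With all 71 libraries the members had 3 lower calls and 1 higher call at the sites, 3 members were called between sites (not ATF4, F 2.22, or DDIT3, F 1.89), and the pathway lists had 14 lower and 12 higher calls; 3 of the 13 calls were kept, ASNS, PSAT1 and DDIT3 at LRMN. RLE size factors kept 13 of 13 and DESeq2 12, with no adjusted p for DDIT4 at CROH. With no filter on low counts the members had 0 and the lists 25 higher calls; with each site and the controls alone the members had 5 higher calls, from 3 genes; with thinned counts the members had 1 and the lists 29 higher calls. Calls gained were ATF4 at IHIN, ATF5 at LRMN, MTHFD2 at CRMI and CROH and PSAT1 at MAWI with each site alone, ATF5 at LRMN with thinned counts, ATF5 at SRMI with all libraries, and PSAT1 at SRMI with DESeq2 and with the covariate. Without the low libraries 11 of 13 calls were kept, and with the covariate 12, while the lists then had 113 lower and 87 higher calls. Calls over all features rose with the covariate too, at LRMN from 1213 to 1637, and fell at GRNY alone, from 634 to 498. The cause of these differences was not tested beyond the samples and features each setting removes.

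Leaving out single libraries, lower calls of members ranged from 8 to 11, higher calls from 1 to 3 (1 without control 1, 3 or 8), members called between sites from 5 to 7, and calls of list genes from 60 to 91 lower and 40 to 60 higher. PHGDH at GRNY was gained without GRNY 4 and ATF4 at ORNY without ORNY 4. The 3 LRMN calls held in each of these 68 fits. ASNS at GRNY (-2.17 to -1.1) was lost without GRNY 2, GRNY 3 or controls 2, 3, 4, 5 or 8. DDIT4 at CROH (0.71 to 1.49) was lost without CROH 2, 3 or 4 or controls 1, 2, 3, 4 or 8, and PSAT1 at ORNY (0.46 to 0.64) without ORNY 1, 2 or 3 or controls 1, 3, 6, 7 or 8. PSAT1 was also lost at BRWI without BRWI 2, at CRMI without CRMI 3 or 4, at CROH without CROH 3, at FRWI without FRWI 2 or 4, at GRNY without GRNY 2 and at JRMI without JRMI 2 or 3, and ATF4 at MROH without MROH 1, 2 or 3.

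The replicate block was fitted to 64 libraries without MIWI and GRMI 1, whose columns carry no label number. Numbers 5 to 8 occur in the controls alone, so each of those controls took a term of its own. The control mean in that fit thus rested on controls 1 to 4, and the setting changed the controls as well as adding the block. With it the members had 6 lower calls, from 4 genes, and 1 higher call. The lists had 45 lower and 25 higher calls, and 7 of 13 calls were kept. Lost were ASNS at GRNY and PSAT1 at BRWI, CRMI, FRWI, JRMI and ORNY. PSAT1 thus kept its lower calls at CROH, GRNY and LRMN and no higher call. The replicate numbers did not pair the libraries: same-numbered libraries of different groups had a median correlation of 0.017 in their deviations, others -0.004. At the mean of sites, where no member was called, PHGDH was 0.11 and ATF5 0.04 with the replicate block, and ATF3 -0.01 with no filter, each of opposite sign to its value of -0.16, -0.02 and 0.03, and DDIT4 was 0.75 with the block, against 0.27. At the depth here CHAC1 did not pass the filter on low counts.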
